A study of Mus musculus with 2 samples.

Results

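The genes described here encode the extracellular matrix around neural stem cells and the receptors that bind it: collagens, laminins, integrins, the SPARC family and the tissue inhibitors of metalloproteinases (TIMPs). They were chosen by symbol alone, as every gene named like a collagen chain, a laminin chain, a numbered or αv integrin, Sparc, Sparcl1 or a numbered TIMP that had at least 20 UMIs in the whole count matrix. A UMI is a molecular barcode that counts each captured transcript once. By name 87 of the 27998 genes matched, and 40 of these reached 20 UMIs, against 13490 genes in all that did. Just inside the limit stood Col5a3 with 22 UMIs and Col20a1 with 20, and just outside it Col12a1 with 19 and Col6a5 with 18. The 47 matching genes below the limit held 258 UMIs together, and 8 of them had none. The 40 members held 25950 UMIs, of which Sparcl1 gave 33.2% and Sparcl1, Sparc and Timp3 together 53.6%.

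The cells came from the lateral subventricular zone, the stem cell niche along the ventricle wall, of male C57BL/6 mice. Tissue of 4 mice aged 2 months made up the young library and tissue of 8 mice aged 22 months the old library, with 1 library per age and no genetic modification or treatment named in the labels. The sort took cells positive for GLAST, which carries glutamate into astrocytes and stem cells, and removed those with O4 (oligodendrocyte lineage), Ter119 (erythroid) and CD45 (leukocyte), and 8000 sorted events entered each droplet run. In the count matrix each cell carries a library number that no label ties to an age, so values are given for library 1 and library 2 and no age is compared.

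Library 1 held 10440891 UMIs over 1849 barcodes and library 2 held 13330251 over 2088, and both shared 4 barcode sequences. After filtering, 1825 and 2064 cells were grouped by their expression of genes other than the members. Quiescent cells, whose markers are shared by resting stem cells and astrocytes, numbered 711 in library 1 and 581 in library 2. The 16 markers of that class summed to 19980.0 and 18273 CPM there (UMIs of a gene scaled to a fixed total of UMIs of its class), against 1363 and 1356 in the 131 and 242 activated cells (activated stem cells or transit amplifying progenitors) and 881 and 656 in the 304 and 378 neuroblasts. Cycling cells formed clusters 2 and 5, which are reported by number because cluster 2 leaned to activated cells and cluster 5 to neuroblasts. A quiescent cell had a median of 3513 and 3462 UMIs, an activated cell 8746 and 7567, and a neuroblast 3137 and 3986.5. There is no replicate library of either age. Classes were compared within each library, no test was made across the 2 libraries, and every interval below is a 95% interval that covers counting error only.

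Matrix proteins are secreted, assembled outside the cell and read back through integrins, which are receptors of an α and a β subunit. Laminins and type IV collagen form basement membranes, the sheets that coat blood vessels and, in this niche, the branched structures called fractones that stem cells touch. SPARC proteins bind collagen and shape its assembly, and TIMPs block the proteases that cut the matrix. Astrocytes are a known source of both SPARC proteins in the brain.

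Most of the measurable members were higher in the quiescent class than in activated cells and than in neuroblasts. Astrocytes and resting stem cells were not separated in that class, so these ratios are no measure of a step of the lineage. Expression of a class is the sum of its UMIs over cells in CPM. A gene was compared when both classes and libraries together gave at least 50 UMIs, and called higher or lower when its CPM differed at least 1.5-fold in the same direction in both libraries. Between quiescent and activated cells 24 of the 40 members could be compared, and 15 were called higher in quiescent cells (25.1% of the 9973 genes compared were) and 1 lower (20.8%). The median log2 ratio of the 24 was 2.02, against 0.01 over all genes compared. Between quiescent cells and neuroblasts 24 could be compared, 16 were higher (27.5% of all genes) and 1 lower (25.4%), with a median log2 ratio of 2.49 against -0.04. Between activated cells and neuroblasts 15 members could be compared, and 5 were higher in activated cells (10.7% of all genes) and 0 lower (11.5%), with a median of 0.83 against -0.01. These 5 were Sparcl1, Timp3, Itgav, Itgb5 and Col5a2, and between 1 and 5 of them were called under other settings. In these medians a class at 0 UMIs was set to 3 counts. Some members, among them Col1a1, Col1a2, Col16a1 and Col4a5, passed the 50-UMI minimum mainly through the class in which they are high. Col11a2, Lama2, Lamb2, Itga6 and Itgb5 likewise had most of their compared UMIs in quiescent cells. These counts and medians were thus partly set by that minimum. They describe the members measured and not all 40.

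**Figure D1:**
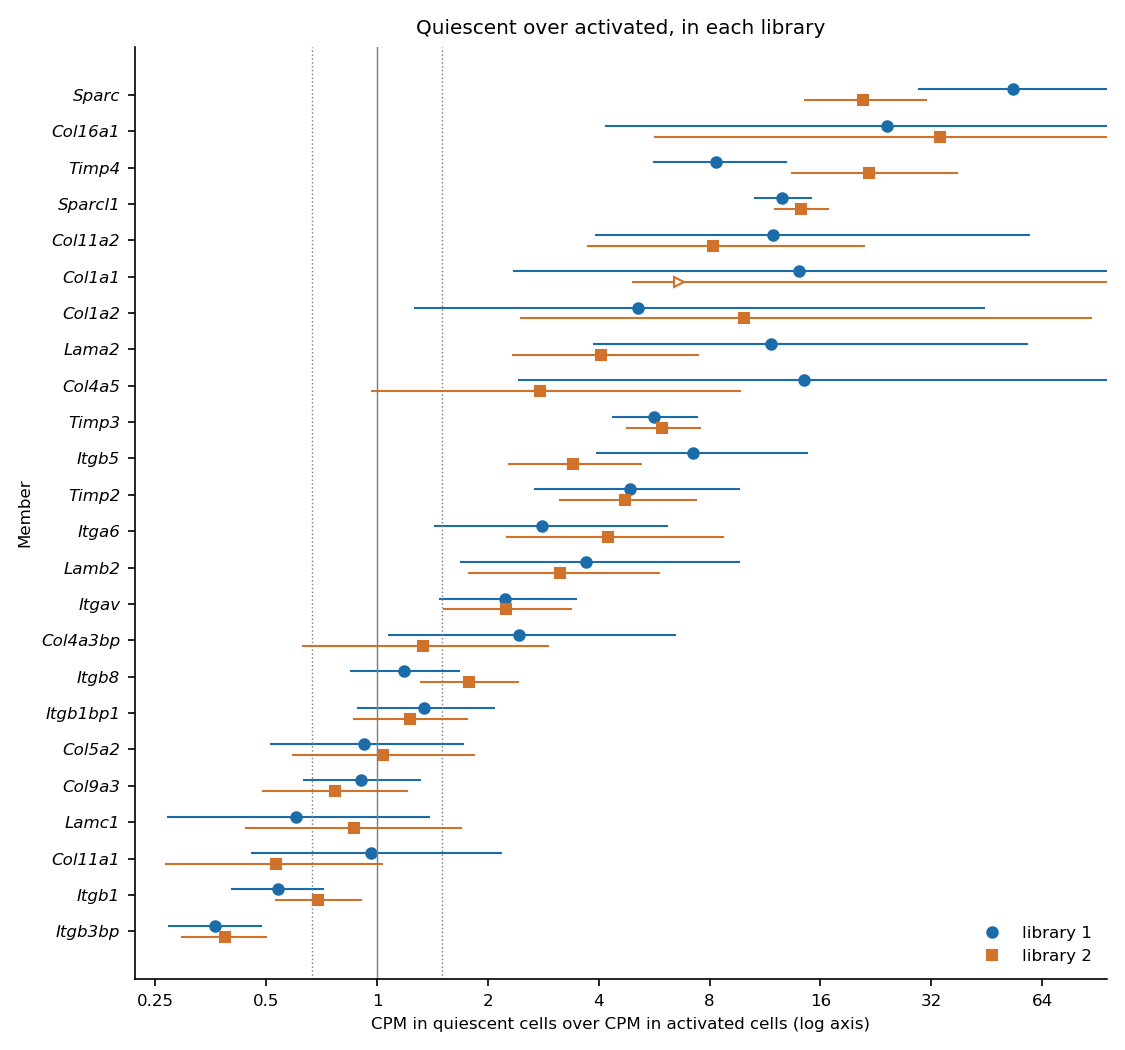
Ratio of CPM in quiescent over activated cells on a log axis, for the 24 members compared, ordered by their mean over both libraries; circles are library 1, squares library 2, lines the 95% counting intervals (running off the axis where long), the open triangle a ratio with 0 UMIs in activated cells set to 3 counts, and dotted lines the 1.5-fold limits. Sparc stands highest at 53.2 and 20.8, and Itgb3bp lowest at 0.363 and 0.386.

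Both SPARC family genes marked quiescent cells in both libraries. Sparcl1 (chr5:104079111-104113733, minus strand, GRCm38), which encodes hevin, a secreted astrocyte protein that promotes synapse formation, reached 1500.45 CPM in the quiescent class of library 1 (interval 1455 to 1547) and 1173 in library 2 (1128 to 1219). Activated cells had 119 and 82.8 CPM of it, cycling cluster 2 had 119 and 66.1, cycling cluster 5 had 49.0 and 43.0, and neuroblasts had 67.8 and 39.3. No other class of these came near the quiescent level, and the quiescent over activated ratio was 12.6 (10.6 to 15.1) in library 1 and 14.2 (12.1 to 16.8) in library 2. Sparc itself (chr11:55394500-55423183, minus strand), the collagen-binding glycoprotein also called osteonectin, had 513 and 340.5 CPM in quiescent cells. It had 9.63 and 16.3 CPM in activated cells and 13.4 and 3.37 in neuroblasts, the last from 16 and 6 UMIs. Its ratio of quiescent over activated was 53.2 (29.7 to 107) and 20.8 (14.5 to 30.9), and of quiescent over neuroblast 38.3 (23.5 to 67.2) and 101 (46.2 to 276). In both libraries the quiescent level of either gene lay far above its level in every other class compared.

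The share of cells with a UMI gave the same order at equal depth. After thinning each cell to 2000 UMIs, which left out 78 and 36 shallower quiescent cells and 32 and 14 neuroblasts, Sparcl1 was seen in 80.7% and 67.5% of quiescent cells, 24.4% and 16.1% of activated cells and 12.1% and 7.14% of neuroblasts. Without thinning the shares were 90.0% and 77.5%, 62.6% and 41.7%, and 24% and 15.3%. Free RNA in the droplets adds a low level of abundant transcripts to every cell, and 16 quiescent markers stood in neuroblasts at 1.18% to 9.07% of their quiescent CPM. Sparcl1 stood there at 4.52% and 3.35%, Sparc at 2.61% and 0.989% and Timp4 at 4.40% and 3.47% of their quiescent level. The neuroblast values of these 3 genes thus lie within or below the range of those markers and are not read as expression. How much of that range is free RNA was not tested. Timp3, at 10.5% and 6.03%, was above that range in library 1 only. In activated cells Sparc stood at 1.88% and 4.80% of the quiescent level, also within that range, which was taken from neuroblasts. Sparcl1 stood at 7.93% and 7.06% there, and only Gfap in library 1, at 9.07%, was higher among the markers. In library 2 the highest marker was Slc1a2 at 6.27%, so Sparcl1 lay above the markers of that library. The ratios of these genes over activated cells may thus hold free RNA in their lower term, and its part was not tested.

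Of the 4 TIMPs, 3 were compared and called higher in quiescent than in activated cells (25.1% of all genes were). The fourth, Timp1, had only 29 UMIs. Timp3 (chr10:86300372-86349506, plus strand), the inhibitor that stays bound to the matrix, had 311 and 279 CPM in quiescent cells, 55.1 and 46.9 in activated cells, and 32.6 and 16.8 in neuroblasts. Its quiescent over activated ratio was 5.64 (4.36 to 7.41) and 5.95 (4.76 to 7.52). Timp4 (chr6:115241892-115252205, minus strand), an inhibitor whose transcript is abundant in brain, had 190.1 and 194 CPM in quiescent cells, 22.7 and 8.97 in activated cells, and 8.37 and 6.74 in neuroblasts, a ratio over activated cells of 8.35 (5.63 to 12.9) and 21.7 (13.4 to 37.5). The libraries thus had close Timp4 levels in quiescent cells, and the activated levels rested on 26 and 17 UMIs. Timp2 (chr11:118301069-118355740, minus strand), which both inhibits metalloproteinases and takes part in activating one of them, had 51.0 and 69.7 CPM in quiescent cells, 10.5 and 14.8 in activated cells, and 22.6 and 14.0 in neuroblasts. Its ratio over activated cells was 4.85 (2.69 to 9.62) and 4.72 (3.14 to 7.34). Within the neuroblast class Timp2 was uneven. It had 38.3 and 32.8 CPM in cluster 6, led by Meg3 and Runx1t1, against 17.7 and 6.95 in cluster 8 and 9.71 and 9.44 in cluster 9.

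The promoters of these quiescent-high genes differ in base composition. They are shown with that of Itgb3bp, the member called lower in quiescent than in activated cells, as the strand of the gene from 5′ to 3′, 250 bases before to 50 after the start, with every CG dinucleotide in capitals (RefSeq, GRCm38.p6).
Sparc: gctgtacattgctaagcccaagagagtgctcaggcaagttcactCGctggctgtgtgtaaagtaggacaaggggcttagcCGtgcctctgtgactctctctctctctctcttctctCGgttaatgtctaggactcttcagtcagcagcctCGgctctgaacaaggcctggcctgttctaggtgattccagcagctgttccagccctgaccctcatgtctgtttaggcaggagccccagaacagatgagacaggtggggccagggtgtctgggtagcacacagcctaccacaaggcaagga
Timp4: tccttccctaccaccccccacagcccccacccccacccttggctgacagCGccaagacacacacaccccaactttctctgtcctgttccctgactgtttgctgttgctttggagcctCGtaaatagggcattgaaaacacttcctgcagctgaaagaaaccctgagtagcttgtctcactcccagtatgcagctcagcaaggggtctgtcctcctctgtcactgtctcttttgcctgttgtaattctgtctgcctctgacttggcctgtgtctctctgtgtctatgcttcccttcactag
Timp3: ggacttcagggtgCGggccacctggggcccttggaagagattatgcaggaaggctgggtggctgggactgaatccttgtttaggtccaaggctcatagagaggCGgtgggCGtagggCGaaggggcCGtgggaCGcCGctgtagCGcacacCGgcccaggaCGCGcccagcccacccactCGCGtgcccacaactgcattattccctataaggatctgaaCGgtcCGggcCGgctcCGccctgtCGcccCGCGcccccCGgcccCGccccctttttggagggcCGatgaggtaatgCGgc
Timp2: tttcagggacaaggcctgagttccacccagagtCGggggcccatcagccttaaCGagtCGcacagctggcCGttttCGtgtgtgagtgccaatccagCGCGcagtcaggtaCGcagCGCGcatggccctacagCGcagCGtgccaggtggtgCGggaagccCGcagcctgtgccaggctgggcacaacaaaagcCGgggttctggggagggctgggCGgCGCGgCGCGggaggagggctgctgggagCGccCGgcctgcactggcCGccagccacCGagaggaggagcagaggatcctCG
Itgb3bp: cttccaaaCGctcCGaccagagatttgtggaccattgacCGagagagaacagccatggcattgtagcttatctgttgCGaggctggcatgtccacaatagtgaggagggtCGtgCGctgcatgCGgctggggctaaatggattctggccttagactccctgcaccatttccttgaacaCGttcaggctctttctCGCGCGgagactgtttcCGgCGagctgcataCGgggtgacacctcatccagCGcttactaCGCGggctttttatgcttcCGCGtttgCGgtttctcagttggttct
The windows are chr11:55420031-55420330 for Sparc, chr6:115252156-115252455 for Timp4 and chr11:118355362-118355661 for Timp2, all on the minus strand, chr10:86300162-86300461 on the plus strand for Timp3, and chr4:99829109-99829408 on the minus strand for Itgb3bp. Sparc and Timp4 hold 4 and 2 CG dinucleotides, an observed over expected ratio of 0.174 and 0.104. Timp3, Timp2 and Itgb3bp hold 24, 25 and 20, a ratio of 0.714, 0.718 and 0.893, and the median over the 32851 promoters of the table is 0.384. A similar class pattern thus went with both CG-poor and CG-rich starts. A GC box (GGGCGG, either strand) occurs at bases -15 to -10 and 13 to 18 of Timp3, with the first transcribed base as 0, and at -37 to -32 of Timp2, which also holds CCAAT at -162 to -158. The search also covered, on either strand, the TATA box with the letters TATAAA and the AP-1 motif with the letters TGANTCA. None of these 4 motifs lies in the Sparc, Timp4 and Itgb3bp windows. Of all promoters, 35.7% hold the GC box, 37.4% the CCAAT motif, 13.6% the TATA box and 7.81% the AP-1 motif. Among 30 windows found for 29 members, 20 (66.7%) hold the GC box, 11 (36.7%) the CCAAT motif, 1 (3.33%) the TATA box and 0 the AP-1 motif.

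**Figure D2:**
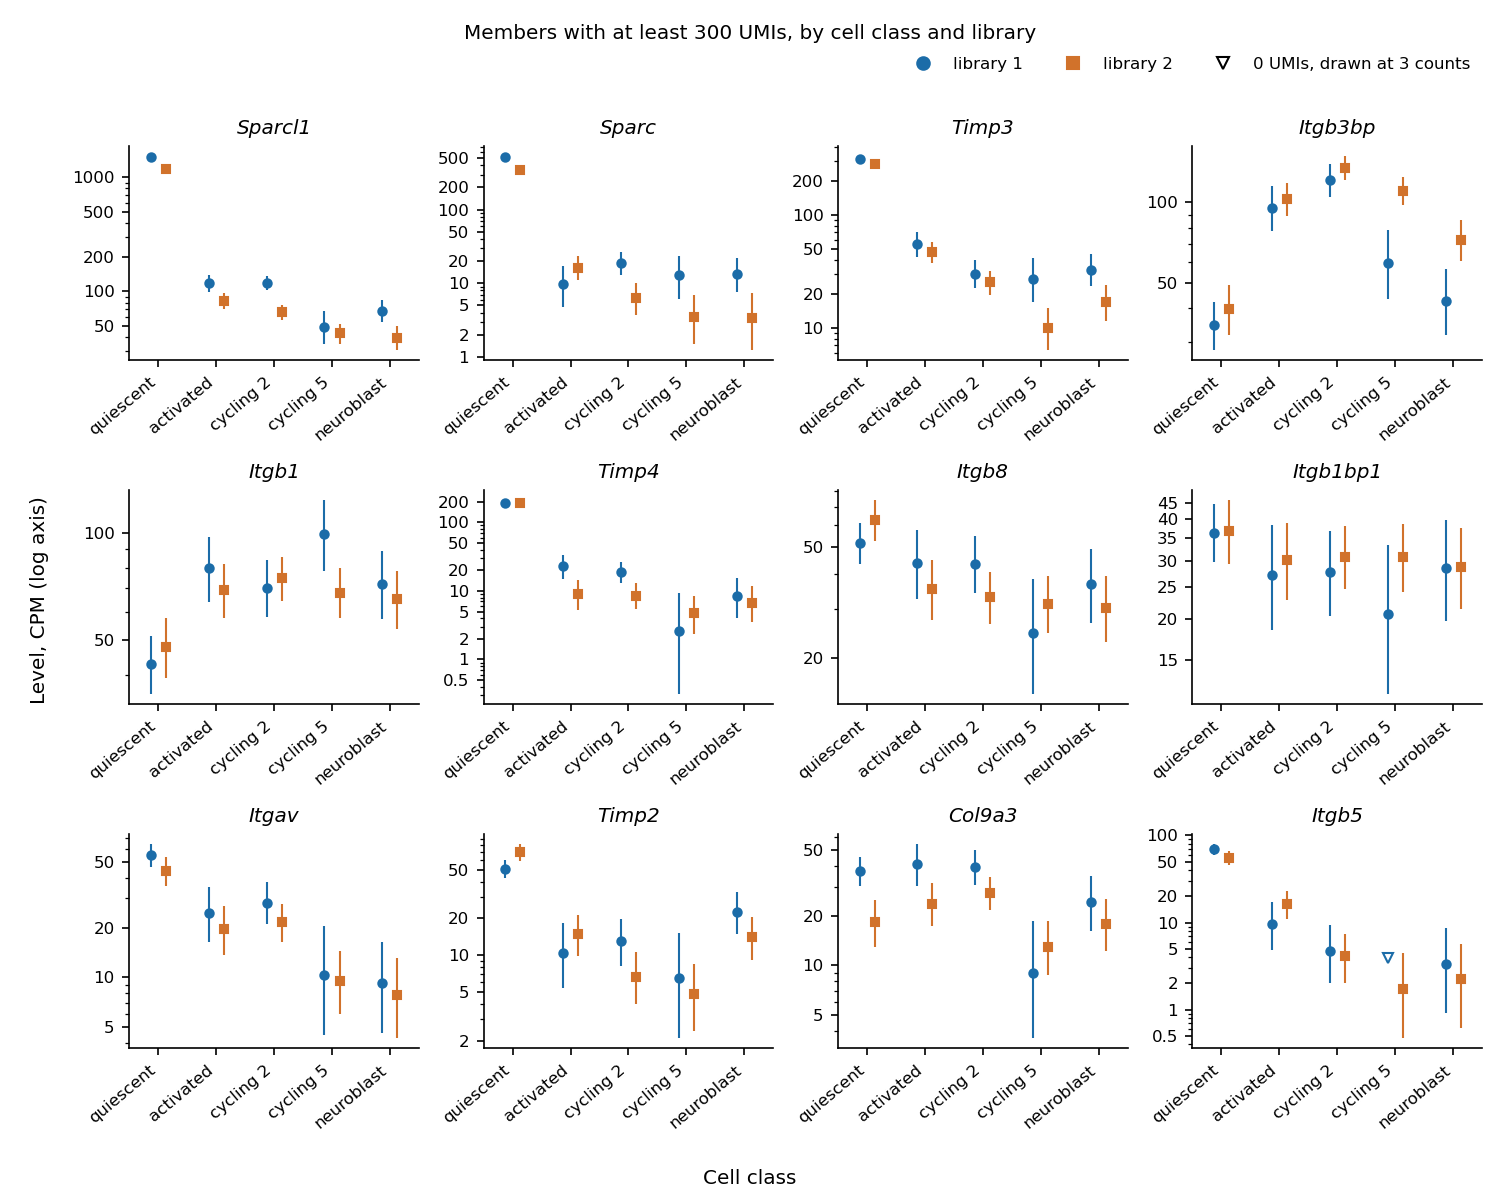
CPM on a log axis of the 12 members with at least 300 UMIs in 5 cell classes; circles are library 1, squares library 2, lines the 95% counting intervals and the open triangle a class with 0 UMIs drawn at 3 counts. Sparcl1, Sparc, Timp3, Timp4, Timp2, Itgav and Itgb5 are highest in quiescent cells in both libraries, while Itgb3bp is highest in cycling cluster 2 with 121 and 135 CPM.

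Of the integrins compared, 2 of 2 α subunits (Itgav and Itga6) and 1 of 3 β subunits (Itgb5) were called higher in quiescent than in activated cells. Over all genes 25.1% were. Itgav (chr2:83724397-83806916, plus strand), the α subunit that pairs with several β subunits to bind vitronectin and latent TGF-β, had 54.7 and 43.8 CPM in quiescent cells, 24.5 and 19.5 in activated cells, and 9.20 and 7.86 in neuroblasts. Its ratio of quiescent over activated was 2.23 (1.48 to 3.47) and 2.24 (1.52 to 3.37), and it was also called higher in activated cells than in neuroblasts, 2.66-fold (1.28 to 5.93) and 2.48-fold (1.31 to 4.97). Its partner Itgb5 (chr16:33829665-33949338, plus strand) was steeper, at 69.6 and 55.6 CPM in quiescent cells, 9.63 and 16.3 in activated cells, and 3.35 and 2.25 in neuroblasts, where 4 UMIs were counted in each library. At 4.81% and 4.04% of the quiescent level, Itgb5 in neuroblasts lies within the range of the quiescent markers given above and is not read as expression. Another partner of αv, Itgb8 (chr12:119158022-119238802, minus strand), whose pair with αv activates TGF-β, had 51.7 and 62.9 CPM in quiescent cells, 43.8 and 35.3 in activated cells, and 36.8 and 30.3 in neuroblasts. That ratio of 1.18 (0.849 to 1.67) and 1.78 (1.32 to 2.42) over activated cells did not reach 1.5-fold in both libraries. Itgb8 was nonetheless higher in quiescent cells in both libraries, and with cells of at least 1000 genes and at most 5% mitochondrial UMIs it was called higher than in activated cells and than in neuroblasts. Whether Itgb8 differs from Itgav and Itgb5 in its class pattern was not tested.

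Itgb1 (chr8:128685654-128733200, plus strand), the β subunit shared by most collagen, laminin and fibronectin receptors, pointed the other way without being called. It had 42.8 and 47.9 CPM in quiescent cells, 79.6 and 69.1 in activated cells, 70.3 and 74.6 in cycling cluster 2, 99.3 and 68.1 in cycling cluster 5, and 72.0 and 65.1 in neuroblasts. The quiescent over activated ratio was 0.537 (0.404 to 0.715) and 0.693 (0.531 to 0.902), the second short of the limit. Itga6 (chr2:71745616-71858416, plus strand), the laminin-binding α subunit that pairs with it, had 24.5 and 26.9 CPM in quiescent cells, 8.75 and 6.33 in activated cells, and 2.51 and 3.37 in neuroblasts, the last from 3 and 6 UMIs. Its ratio over activated cells was 2.81 (1.43 to 6.12) and 4.25 (2.26 to 8.69). CPM and transcripts per cell gave different answers for some integrins, because an activated cell yields more UMIs. Itgav gave 0.207 and 0.165 UMIs per quiescent cell and 0.214 and 0.153 per activated cell, and Itgb1 gave 0.162 and 0.181 against 0.695 and 0.541. For Sparcl1 the order was the same on both scales, with 5.67 and 4.43 UMIs per quiescent cell against 1.04 and 0.649. Of the remaining integrins, Itga7 had 52 UMIs in all, Itgb4 41 and Itga2b 27.

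Among laminins, 2 of the 3 chains compared were higher in quiescent cells. Lama2 (chr10:26980036-27619758, minus strand), the α chain of the laminin in muscle and in brain vessel walls, had 30.9 and 34.2 CPM in quiescent cells and 2.63 and 8.44 in activated cells. The ratio of 11.8 in library 1 rested on 3 UMIs in activated cells (3.89 to 58.2), and that of 4.05 in library 2 on 16 (2.34 to 7.45). Lamb2 (chr9:108479736-108490530, plus strand), a β chain, had 22.7 and 26.4 CPM in quiescent cells, 6.13 and 8.44 in activated cells, and 2.51 and 2.81 in neuroblasts, a ratio over activated cells of 3.70 (1.69 to 9.60) and 3.13 (1.78 to 5.84). Lamc1, the γ chain common to most laminins, had 6.32 and 9.12 CPM in quiescent cells against 10.5 and 10.5 in activated cells, each from 12 to 20 UMIs, and was not called. Lama5 had 32 UMIs in all.

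Collagens were sparse, and 3 of the 5 fibrillar ones compared were called higher in quiescent than in activated cells (25.1% of all genes were). Of these, Col1a1 and Col1a2 are no support for the pattern, as given below. Col11a2 (chr17:34039437-34066685, plus strand), a chain of the minor fibrillar collagen known from cartilage, had 31.2 and 30.1 CPM in quiescent cells, 2.63 and 3.69 in activated cells, and 3.35 and 2.25 in neuroblasts. Its ratio over activated cells was 11.9 (3.93 to 58.9, 3 UMIs in activated cells) and 8.15 (3.74 to 21.1). Its partner chain Col11a1 was called lower in quiescent cells than in neuroblasts, with 9.30 and 7.29 CPM against 15.1 and 15.2, a ratio of 0.617 (0.324 to 1.20) and 0.481 (0.242 to 0.926). This call ended with stricter cell filters, with thinning, with cycling clusters joined and with the largest cluster of each class. The neuroblast signal of Col11a1 lay in cluster 6, at 29.3 and 30.3 CPM, against 5.89 and 11.6 in cluster 8 and 7.28 and 10.5 in cluster 9. Col5a2 had 14.5 and 13.7 CPM in quiescent and 15.8 and 13.2 in activated cells, and was called higher in both than in neuroblasts. Neuroblasts had 5.86 and 8.42 CPM of it, from 7 and 15 UMIs. The ratio of quiescent cells over neuroblasts was 2.48 (1.10 to 6.56) and 1.62 (0.847 to 3.25). For activated cells over neuroblasts it was 2.69 (1.07 to 7.62) and 1.57 (0.794 to 3.19), so both library 2 intervals included 1.

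Col1a1 and Col1a2, the chains of type I collagen, were called higher in quiescent cells on few UMIs. Col1a1 had 33 and 23 UMIs there (12.3 and 10.5 CPM), 1 and 0 in activated cells and 0 in neuroblasts of both libraries. The ratio over activated cells was 14.0 (2.35 to 571) in library 1 and at least 6.63 in library 2, and over neuroblasts at least 4.89 and 6.22, with 0 taken as 3 counts in each library and the counting error of the quiescent side left out. Col1a2 had 24 and 23 UMIs (8.93 and 10.5 CPM) against 2 and 2 in activated cells, a ratio of 5.10 (1.27 to 44.5) and 9.94 (2.46 to 87.0). Col16a1, which associates with the surface of fibrils, had 57 and 39 UMIs (21.2 and 17.8 CPM) against 1 and 1, a ratio of 24.2 (4.18 to 973) and 33.7 (5.70 to 1365). Col4a5, a basement membrane chain, had 34 and 16 UMIs (12.6 and 7.29 CPM) against 1 and 5 in activated cells and 0 in neuroblasts of both libraries. Its ratio over activated cells was 14.5 (2.42 to 587) and 2.77 (0.968 to 9.65). None of these 4 genes had more than 5 UMIs in activated cells or neuroblasts of either library. All 4 passed the 50-UMI minimum mainly through the quiescent class, so their calls were largely set by that minimum and are no support for the pattern.

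Col9a3 (chr2:180597790-180622189, plus strand), a chain of a collagen that decorates fibrils, did not follow the quiescent pattern. It had 37.2 and 18.2 CPM in quiescent cells, 41.1 and 23.7 in activated cells, 39.6 and 27.5 in cycling cluster 2, 9.03 and 13 in cycling cluster 5, and 24.3 and 18.0 in neuroblasts. Quiescent and activated levels lay within counting error of each other in both libraries, at a ratio of 0.904 (0.633 to 1.31) and 0.768 (0.489 to 1.20). Col4a1, with 98 UMIs, and Col4a2, with 25, encode the main chains of type IV collagen and start head to head on chromosome 8, so that their promoter windows share 78 bases. Neither reached 50 UMIs over quiescent and activated cells. The other collagens were too rare for a comparison between classes: Col23a1 and Col9a2 had 49 UMIs each, Col4a4 45, Col18a1 37, Col27a1 36, Col26a1 29, Col2a1 23, Col5a3 22 and Col20a1 20.

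Of the 40 members, 3 match by spelling and are no matrix genes. Itgb3bp (chr4:99765402-99929813, minus strand) encodes a centromere protein and was the only member called lower in quiescent than in activated cells. It had 34.6 and 39.7 CPM in quiescent cells, 95.4 and 103 in activated cells, 121 and 135 in cycling cluster 2, 59.3 and 111 in cycling cluster 5, and 42.7 and 72.4 in neuroblasts. The ratio over activated cells was 0.363 (0.272 to 0.483) and 0.386 (0.296 to 0.499). Among neuroblast clusters it had 72.8 and 101 CPM in cluster 9, whose markers overlap with activated cells, against 24.8 to 40.4 in clusters 6 and 8. Itgb1bp1, an intracellular regulator of integrin activation, had 36.5 and 36.9 CPM in quiescent cells, 27.1 and 30.1 in activated cells and 28.4 and 28.6 in neuroblasts, and was not called. Col4a3bp, a ceramide transporter, had 14.9 and 9.12 against 6.13 and 6.86 CPM and was not called.

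Vascular and fibroblast cells make many of these proteins, so their markers were counted in the quiescent class. Of 10 endothelial markers 3 had a UMI in library 1 and 10 in library 2, with sums of 50.6 and 164 CPM. Of 11 mural markers 4 and 10 had a UMI, with sums of 101 and 243 CPM, and of 10 fibroblast markers 2 and 8, with sums of 1.49 and 103 CPM. In activated cells the sums were 10.5 and 20.0 CPM for endothelial, 7.0 and 17.4 for mural and 0.875 and 6.33 for fibroblast markers, and in neuroblasts 6.69 and 21.3, 4.18 and 7.30, and 0 and 6.74. In quiescent cells of library 1, 9 of the 30 different markers had UMIs, 412 together. These were Pecam1, Egfl7, Pltp, Pdgfrb, Notch3, Tagln, Myl9, Pdgfra and Fmod. The others, among them Cldn5, Flt1, Cdh5, Rgs5, Dcn and Lum, were at 0. In library 2, 6 quiescent cells carried 44 to 179 of these marker UMIs each, and no other quiescent cell of either library more than 9. Those 6 cells held 126 member UMIs, among them 46 of Sparc, 27 of Sparcl1, 7 of Timp2, 6 of Col1a2, 5 each of Col4a1, Lamc1, Itgb1 and Timp3 and 4 of Col1a1. Without them library 2 had 323 CPM of Sparc, 1172 of Sparcl1, 8.74 of Col1a1, 7.82 of Col1a2 and 4.14 of Col4a1 in quiescent cells. The calls higher than in activated cells went from 15 to 14, since Col1a2 fell below 50 UMIs, and Itgb1 and Lamc1 joined Itgb3bp as lower, from 1 to 3. In library 1, where no quiescent cell carried more than 5 of these marker UMIs, Col1a1, Col1a2, Col16a1 and Col4a5 had the UMIs given above. Whether vascular or fibroblast cells are a source of them was not tested.

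The quiescent class is made of 2 clusters, and the members did not fall alike in them. Cluster 0 (513 and 298 cells) is led by Cxcl14, Slc7a10, Htra1 and Aqp4, and cluster 1 (198 and 283 cells) by Gfap, Thbs4, Prss56 and Urah. Of 16 quiescent markers, 15 stood above the other cells in cluster 0 and 9 in cluster 1. In cluster 1 endothelial markers came next, at a mean log2 ratio of 0.772 against 0.902. Of 21 members compared, 9 were higher in cluster 0 (9.35% of all genes were) and 0 lower (17.3%), with a median log2 ratio of 0.52 against -0.22 over all genes. Of the members under the 50-UMI minimum, Col11a1, Col4a1, Col9a2 and Lamc1 were at least 1.5-fold lower in cluster 0 in both libraries. Itga7 and Col23a1 were higher there, with a cluster at 0 UMIs set to 3 counts, so both counts describe only the members compared. Sparcl1 had 2093 and 2116 CPM in cluster 0 and 474 and 344 in cluster 1, Timp4 had 267 and 378 against 56.9 and 32.6, and Timp3 had 397 and 365 against 162 and 204. Itgav had 71.6 and 73.0 against 25.4 and 18.0, Itga6 29.9 and 43.8 against 15.2 and 12, Itgb8 62.8 and 79.9 against 32.5 and 48.0, and Col11a2 46.3 and 42.9 against 5.08 and 18.8. Col16a1 and Col1a1 completed the 9, the latter with 32 and 15 UMIs in cluster 0 against 1 and 8, of which 4 in library 2 lay in the vascular marker cells. Sparc was not part of this difference, with 557 and 273 CPM in cluster 0 and 436 and 400.1 in cluster 1. Even cluster 1 stood well above activated cells in Sparcl1, Sparc and Timp3. Sparcl1 is among the leading genes of cluster 0, although no member was used to build the clusters.

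**Figure D3:**
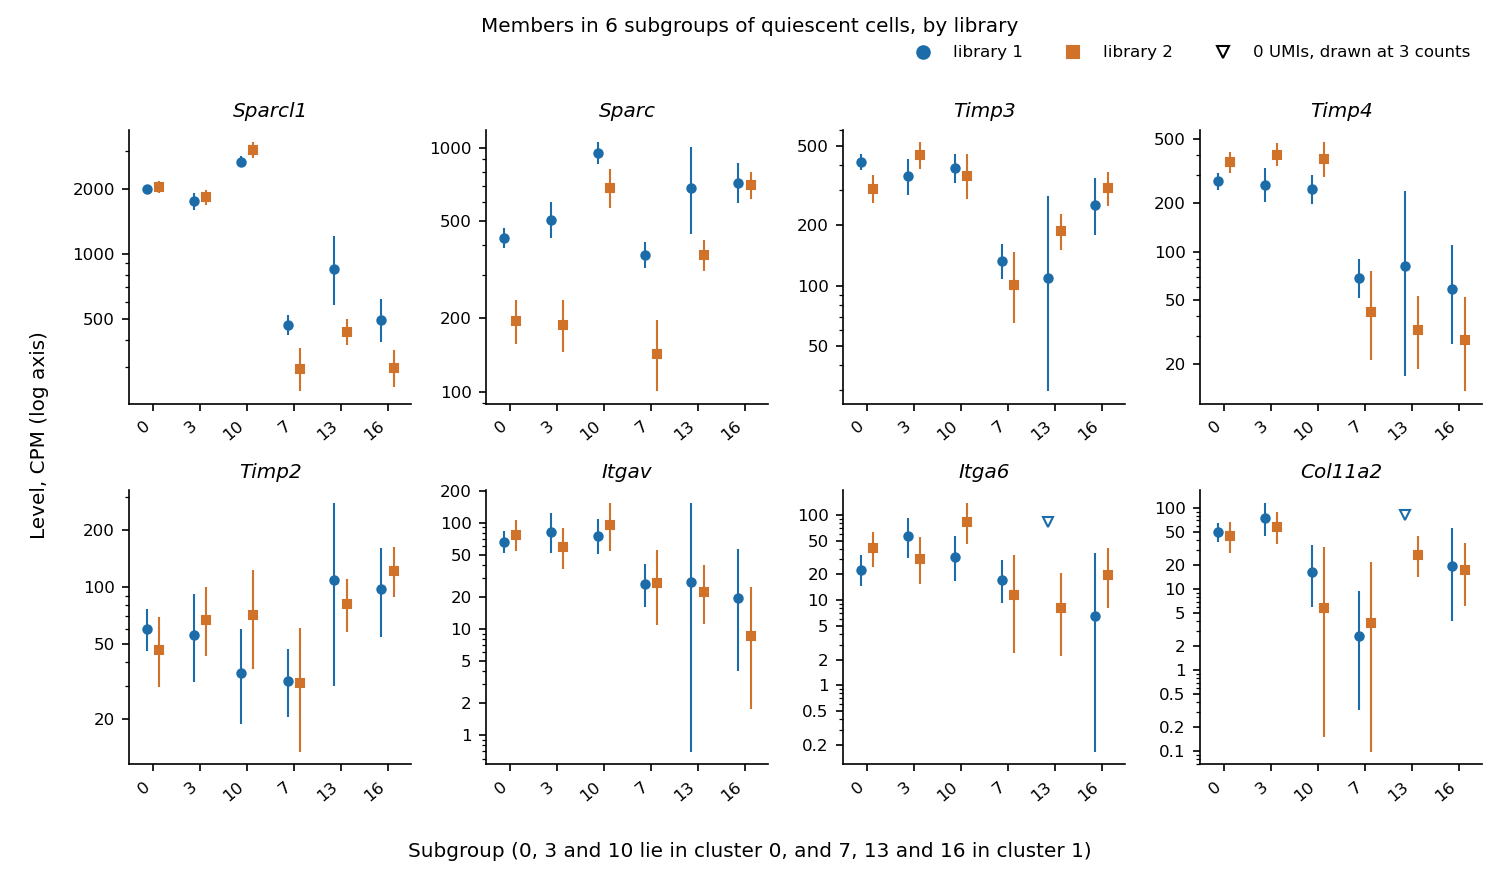
CPM on a log axis of 8 members in 6 finer subgroups of clusters 0 and 1; circles are library 1, squares library 2, lines the 95% counting intervals and open triangles subgroups with 0 UMIs drawn at 3 counts. Sparcl1, Timp4 and Itgav step down from subgroups 0, 3 and 10 to subgroups 7, 13 and 16, while Sparc does not, with its highest levels in subgroups 10 and 16.

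A finer division split these cells into 6 subgroups, of which 5 were again named quiescent by their markers. Of 16 quiescent markers, 14 stood above the other cells in subgroup 0, 15 in 3 and in 10, 11 in 13 and only 5 in 7, the weakest name. Subgroup 16 was not: 7 of its 10 endothelial markers stood above the other cells, and fibroblast markers came next. In library 1 its endothelial, mural and fibroblast markers summed to 77.9, 123 and 0 CPM and its quiescent markers to 18332, and in library 2 to 784, 685 and 623 against 9689. Without subgroup 16 the quiescent class still had 15 members called higher than in activated cells, 14 of them as before, and 14 higher than in neuroblasts. Subgroup 10, led by Agt, Gabbr2 and Crym (120 and 51 cells), had the highest Sparcl1, at 2667 and 3013 CPM, and 954 and 684 CPM of Sparc. Subgroup 16, led by Itm2a, S100a6 and Riiad1 (46 and 84 cells), had low Sparcl1, at 493 and 294, but 720.3 and 705 CPM of Sparc and the most Timp2 of the subgroups with over 40 cells in each library, at 97.3 and 122. All 6 vascular marker cells lay in it, and without them library 2 had 610.3 CPM of Sparc, 231 of Sparcl1 and 108 of Timp2 there. Subgroup 7, led by Prss56 and Notum (134 and 44 cells), had the lowest Sparc of the 6 subgroups, at 365 and 143, and little Col11a2, with 2 and 1 UMIs, against 53 and 22 in subgroup 0 and 20 and 21 in subgroup 3. Subgroup 13, led by Gfap and Urah, held 11 cells of library 1 and 142 of library 2, so that cluster 1 is made of different subgroups in the libraries. High Sparcl1 and high Sparc thus went together in subgroup 10 and apart in subgroup 16.

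Between libraries, 21 members could be compared in quiescent cells. Of these, 4 were at least 1.5-fold higher in library 1 (5.83% of 8655 genes were) and 0 lower (5.01%). The 4 were Sparc, Col9a3, Col4a3bp and Col4a5. Sparc was just past the limit at 1.51-fold (1.38 to 1.65), and its library 2 level went from 340.5 to 323 CPM without the vascular marker cells. Col9a3 was at 2.04-fold (1.40 to 3.02). The intervals of Col4a3bp (1.63-fold, 0.932 to 2.95) and Col4a5 (1.73-fold, 0.931 to 3.36) included 1. In activated cells 8 could be compared, with 1, Col9a3, higher in library 1 (4.96%) and 0 lower (5.96%), at 41.1 against 23.7 CPM (1.73-fold, 1.13 to 2.67). In neuroblasts 8 could be compared, with Sparcl1, Timp3 and Timp2 higher in library 1 (6.44%) and Itgb3bp lower (3.98%). Sparcl1 in neuroblasts lies within the range of the quiescent markers, as given above, and for Timp2 the ratio of 1.61 had an interval that included 1 (0.899 to 2.89). Itgb3bp had 42.7 against 72.4 CPM (0.589, 0.417 to 0.821), and cluster 9, where it is highest, gave 55 of 304 neuroblasts in library 1 and 131 of 378 in library 2. With 1 library each, an age, a pool of mice and a droplet run cannot be told apart.

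The Sparc ratio between libraries depended on how finely the quiescent class was divided. In cluster 0 it had 557 CPM in library 1 and 273 in library 2, a ratio of 2.04 (1.78 to 2.34), and in cluster 1 it had 436 and 400.1, a ratio of 1.09 (0.954 to 1.25). The vascular marker cells raise Sparc in library 2. Without them library 2 had 367 CPM in cluster 1 and 610 in subgroup 16, against 436 and 720 in library 1. By subgroup the ratio was 2.21 (1.77 to 2.78) in subgroup 0, 2.71 (2.01 to 3.69) in 3, 1.39 (1.13 to 1.73) in 10, 2.56 (1.81 to 3.71) in 7, 1.88 (1.18 to 2.86) in 13 and 1.02 (0.810 to 1.28) in 16. Library 1 was thus higher beyond counting error in 5 of 6 subgroups, of which 1 held only 11 cells of library 1 and another 44 of library 2, and level in subgroup 16, which has the vascular marker cells. Sparcl1 in cluster 0 was equal, at 2093 and 2116 CPM (0.989, 0.937 to 1.04), and Timp4 was higher in library 2 there, at 267 and 378 CPM (0.706, 0.615 to 0.811), without reaching 1.5-fold. In cluster 1 Timp4 was called higher in library 1, at 56.9 and 32.6 CPM (1.75, 1.14 to 2.71), Itgb5 likewise, at 65.1 and 42.0 (1.55, 1.05 to 2.30), and Timp2 lower, at 46.8 and 80.5 (0.581, 0.399 to 0.835). Cluster 1 is made of different subgroups in the libraries, and the part of this in these ratios was not tested. The Timp4 ratio in subgroup 7 was 1.62 (0.835 to 3.44), and that of Timp2 in subgroup 16 was 0.800 (0.413 to 1.47). The share of all genes called between libraries was not counted within clusters. Lama2 was lower in library 1 in cluster 0, at 28.7 and 43.8 CPM (0.656, 0.429 to 1.01).

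**Figure D4:**
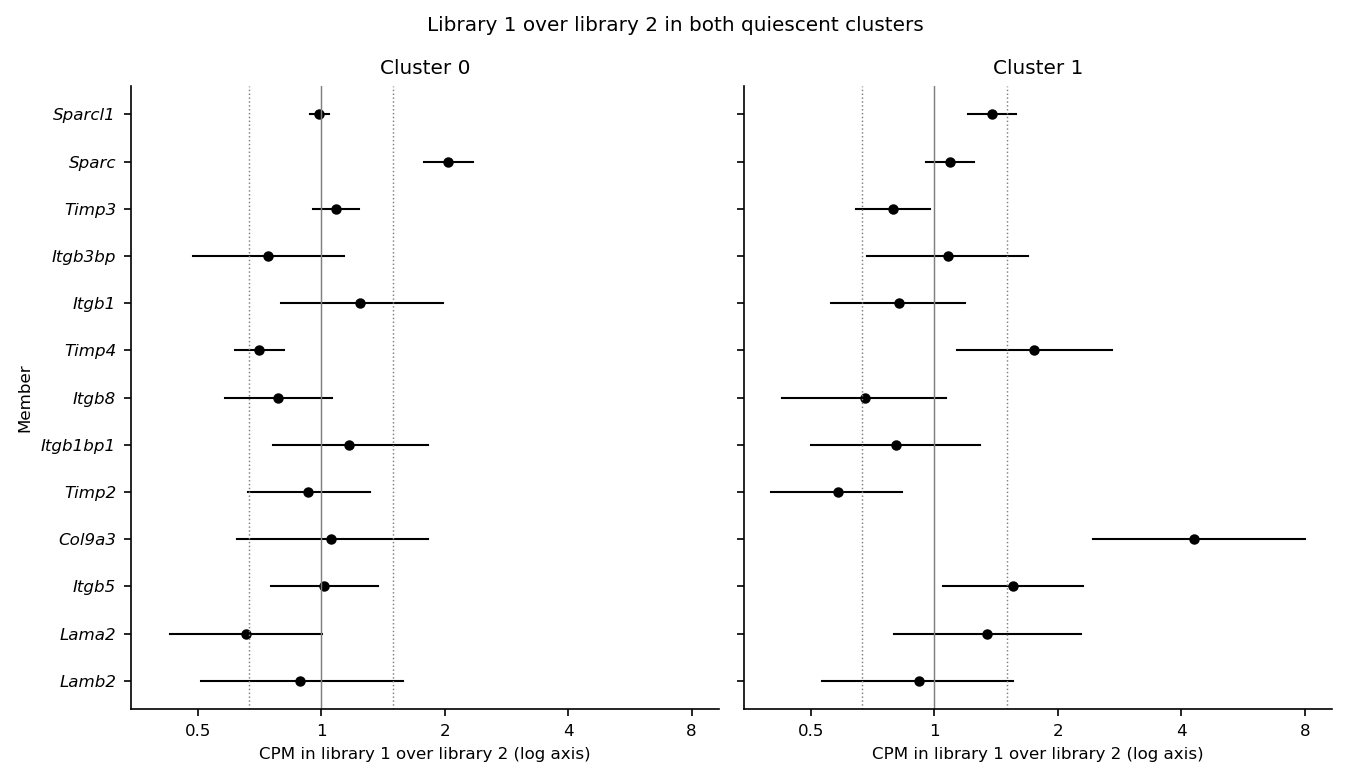
Ratio of CPM in library 1 over library 2 on a log axis in cluster 0 (left) and cluster 1 (right) of the quiescent class, for the 13 members with at least 50 UMIs in both clusters; lines are 95% counting intervals and dotted lines the 1.5-fold limits. Sparc departs from 1 in cluster 0 at 2.04, and Col9a3 in cluster 1 at 4.30.

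Within the quiescent class the libraries stood far apart in Col9a3 in cluster 1. It had 59.0 CPM in library 1 and 13.7 in library 2 there, a ratio of 4.30 (2.44 to 8.02), against 24.6 and 23.4 in cluster 0, a ratio of 1.05 (0.624 to 1.82). Its highest level was in subgroup 7, at 71.3 and 30.8 CPM (54 and 8 UMIs), a ratio of 2.31 (1.09 to 5.63). Subgroup 13, which gives most of cluster 1 in library 2, had 8.12 CPM in library 2, and subgroup 16 had 13 and 11.3. Cluster 1 thus differs between libraries both in its Col9a3 level and in its makeup, and the part of the makeup in the ratio was not tested.

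The other matrix genes, taken from 6 lists, leaned the same way as the members, with medians below the members' 2.02. The lists were chosen with earlier results of these data known, so they give no independent support for the members' pattern. Of 12 collagen-processing genes compared between quiescent and activated cells, 8 were higher in quiescent cells and 0 lower, with a median log2 ratio of 1.51. Over all genes compared 25.1% were higher and 20.8% lower, and the same shares stand beside each list below. P3h3 and P4ha1, which hydroxylate collagen prolines, had 41.7 and 42.4 against 8.75 and 11.6 CPM, and 53.6 and 30.5 against 12.3 and 5.8. P4hb, a subunit of prolyl hydroxylase, and Plod3, a lysyl hydroxylase, had 52.1 and 56.5 against 75.3 and 60.1, and 15.2 and 16.4 against 16.6 and 17.4, and neither was called. Of 14 interstitial glycoproteins 8 were higher and 2 lower, with a median of 1.06. Prelp, a leucine-rich anchor of basement membrane to collagen, had 55.0 and 58.8 against 3.50 and 2.11 CPM, and Fbln5, an elastic fibre protein, had 38.7 and 7.75 against 1.75 and 0. Both lower genes are microfibril-associated, Mfap2 with 132 and 118 against 346 and 326 CPM and Mfap4 with 18.2 and 10.5 against 28.0 and 27.4. Thbs4, Htra1, Vtn, Cspg4, Dcn, Lum, Ogn, Mgp and Fmod of these lists are also among the markers used to name cells, Thbs4 and Htra1 for the quiescent class.

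Integrin adaptors and tetraspanins, proteases, proteoglycans and basement membrane partners showed smaller medians. Of 22 adaptors and tetraspanins 11 were higher and 2 lower, with a median of 0.88. Cd81, a tetraspanin, had 2983 and 2638 CPM in quiescent against 340 and 349 in activated cells, and Tns1, an adhesion adaptor, 10.4 and 9.57 against 0.875 and 2.11. The lower ones were Actn1, an actin crosslinker, with 6.70 and 10.0 against 11.4 and 34.8, and Tln2, a talin, with 5.21 and 5.93 against 9.63 and 9.49. Of 12 protease genes 6 were higher and 1 lower, with a median of 0.88. Htra1, a secreted serine protease that was also a marker used to name the quiescent class, had 1178 and 883 against 32.4 and 30.6 CPM. Serpine2, a serine protease inhibitor, had 621 and 512 against 35.9 and 30.1. The lower gene was Adamts1, at 9.67 and 14.6 against 14.9 and 22.1, and Adam9 had 5.95 and 9.57 against 13.1 and 11.1 without a call.

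Of 12 proteoglycan and hyaluronan matrix genes 5 were higher and 1 lower, with a median of 0.67. Gpc5, a glypican, had 177 and 123 against 5.25 and 6.86 CPM, and Hapln1, a link protein, 59.5 and 63.4 against 2.63 and 1.58. Gpc1, another glypican, was lower at 25.3 and 16.4 against 53.4 and 49.6, and Vcan, a large chondroitin sulfate proteoglycan, had 19.7 and 16 against 20.1 and 14.8. Of 10 basement membrane partners and receptors 4 were higher and 1 lower, with a median of 0.68. Sdc4, a syndecan that works beside integrins, had 297 and 263 against 11.4 and 23.7 CPM, and Nid2, a linker of laminin and collagen, 10.4 and 16 against 0 and 0.527. Sdc1 was lower, at 2.23 and 4.56 against 18.4 and 20.0, and Sdc3 had 17.1 and 22.3 against 29.8 and 23.2 without a call. Against neuroblasts, where 27.5% of all genes were higher and 25.4% lower, the lists gave 8 higher and 0 lower of 11 (collagen processing), 8 and 1 of 14 (glycoproteins), 14 and 1 of 21 (adaptors), 6 and 0 of 13 (proteases), 8 and 2 of 11 (proteoglycans) and 6 and 2 of 9 (basement membrane).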

How the data were processed

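Single-cell transcriptomes of 1 young and 1 old library were deposited as 1 matrix of raw UMI counts. Per the submitters' processing notes Cell Ranger 2.0.0 and the builds GRCm38.p3 and mm10 were used. How cells were called is not given in the sources used here. The members and gene lists were chosen with earlier results of these data known. Gene positions come from GENCODE (GRCm38), and strand or multimapping in the counting is not stated. Timp2 overlaps another gene on its strand.

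Barcodes with under 500 genes or over 10% of UMIs from mitochondrial genes (9 in library 1 and 13 in library 2) were removed. Scrublet, run on each library with an expected rate of 1.5%, removed 15 (0.811%) and 11 (0.527%) as doublets. Clusters (2000 variable genes outside all lists, 30 principal components, 15 neighbours, Leiden resolution 1 and, for subgroups, 2, seed 1; Python 3.11.15, scanpy 1.11.5, leidenalg 0.10.2) were named from 140 marker entries of 14 cell classes, and names mean "like". Cells of 1 library are not replicates, so UMIs were summed per class and library, with exact Poisson, Clopper-Pearson and conditional binomial intervals for levels, shares and ratios.

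Members with at least 300 UMIs are described in each class, those with 50 to 299 where a class comparison was called or libraries differed 2-fold, and those under 50 by total, apart from single examples. From each matrix list the 2 highest and 2 lowest genes are named. Values of Lamc1, Col4a3bp and the cluster and subgroup examples were chosen after they were seen. The alternatives are given at the end. The call procedure was tested on simulated data.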

Additional observations from a re-analysis of the deposited data

Results flagged for a closer look

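Col9a3 differed between quiescent clusters in opposite directions in the libraries. The log2 ratio of cluster 0 over cluster 1 was -1.26 in library 1 (24.6 against 59.0 CPM) and 0.77 in library 2 (23.4 against 13.7 CPM). This difference between libraries was not tested, and library 2 rests on 24 and 16 UMIs.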

How the results depend on the processing

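The counts of members higher in quiescent cells stayed within 1.5-fold of 15 (against activated cells) and 16 (against neuroblasts) under every alternative that gave a value, with 12 to 15 and 11 to 16 of these genes shared. Small counts moved. Members lower in quiescent than in activated cells, 1 as reported, were 2 with cycling clusters joined to their next class, with doublets kept, with the largest cluster of each class, at resolution 2, with cells thinned to 2000 UMIs and without subgroup 16, and 3 without the vascular marker cells. Against neuroblasts that count went from 1 to 0 with stricter cell filters (1000 genes, 5% mitochondrial), with cycling clusters joined and with thinning. Of activated cells against neuroblasts, 5 higher became 3 with the largest clusters (1 of them among the 5) and with thinning (2 among the 5), only 2 of the 5 were called at resolution 2 and 3 with stricter filters, doublets kept or cycling clusters joined, and 0 lower became 2 with doublets kept and with the largest clusters. In cluster 0 against cluster 1, 0 lower became 4 with a minimum of 20 UMIs or 1 UMI and 1 without subgroup 16. These 4 were Col11a1, Col4a1, Col9a2 and Lamc1, which lay under the 50-UMI minimum. The cause of the other moves was not tested.

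Between libraries, quiescent members higher in library 1 went from 4 to 1 with stricter filters and with the largest cluster and to 2 without subgroup 16, and lower from 0 to 3 at 1 UMI and 1 with stricter filters, the largest cluster and thinning. In activated cells 1 higher became 2 at 1 UMI, at 20 UMIs and at resolution 2, 3 with cycling clusters joined and with doublets kept and 0 with stricter filters, and 0 lower became 7 at 1 UMI, 2 at 20 UMIs and 1 with cycling clusters joined. In neuroblasts 3 higher became 5 at 1 UMI and 1 with the largest cluster, resolution 0.5, resolution 2 and thinning, and 1 lower became 3 at 1 UMI, 2 at 20 UMIs and 0 with doublets kept, the largest cluster, resolution 0.5 and resolution 2. Itgb3bp in quiescent cells over neuroblasts, uncalled at a log2 ratio of -0.59, turned to 0.20 with doublets kept, 0.19 with the largest cluster, 0.18 at resolution 0.5 and 0.13 at resolution 2. The largest-cluster setting moved the median of all genes to -0.15 against activated cells and -0.12 against neuroblasts.

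Joining cycling clusters and leaving out vascular marker cells or subgroup 16 were chosen after seeing the data. Resolution 0.5 gave no activated class, and no value of cluster 0 against cluster 1 could be had where cells were clustered again or averaged per cell. No paired analysis was possible because, between the ages, each has 1 library and the matrix carries no replicate numbers; class ratios were taken within each library. Depth left 14 of the 40 members under 50 UMIs and out of every comparison made at the 50-UMI minimum.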

Other observations

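Outside the main classes a few rare cells held high levels of single members. In 2 and 4 microglia-like cells Sparc had 2034 and 1909 CPM (17 and 28 UMIs), and in 16 and 31 oligodendrocyte precursor-like cells Sparcl1 had 1017 and 222 CPM, Itgb8 had 254 and 177, Itgav 207 and 103 and Timp4 366 and 126. Oligodendrocyte-like cells (99 and 9) had 163 and 146 CPM of Timp2, and the 99 of library 1 had 37.1 CPM of Itgb4, a β subunit whose quiescent level was 0.744. In 3 and 13 ependymal-like cells Sparcl1 had 1337 and 702 CPM. The sort excluded CD45 and O4, which microglia and the oligodendrocyte lineage carry.

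Cluster 4, left unnamed and led by Socs3, Junb and Atf3 (225 and 113 cells), had 235 and 208 CPM of Sparcl1, 153 and 131 of Sparc and 196 and 271 of Timp3. These values lie between those of quiescent and activated cells. Timp1 had 13 of its 29 UMIs in library 1 cells of that cluster.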
